A study of Mus musculus with 30 samples.

Results

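The 10 genes described here are the receptors and the receptor-proximal signalling proteins of the interleukin-1 (IL-1) family. They were taken by symbol from a table of 35727 mouse genes: the receptors Il1r1, Il1r2, Il1rl1 and Il18r1, the accessory chains Il1rap and Il18rap, the kinases Irak1, Irak3 and Irak4, and the ubiquitin ligase Traf6. All 10 passed the filter on low values and were tested among 16958 genes. Bone marrow haematopoietic stem cells (HSCs), the cells that renew blood, were sorted at 4000 to 5000 cells per library and sequenced in 30 libraries by Smart-seq2, which copies whole polyadenylated transcripts without marking strand. From mice labelled IL1R1 KO there were 3 libraries at 2 months of age, 4 at 1 year and 5 at 2 years. Mice with a germ-free bowel gave 3 at 2 months and 2 at 1 year. Wild-type (WT) mice gave 4 at 2 months, 5 at 1 year and 4 at 2 years. The sources used here do not give the knockout allele, the strain or the sort markers. The series asks, by its title, how IL-1 and the microbiome bear on the ageing of HSCs.

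IL-1 family cytokines bind a ligand-specific receptor chain, which then recruits an accessory chain. Il1r1 binds IL-1 alpha and IL-1 beta with Il1rap as its partner, Il1rl1 (ST2) binds IL-33 with the same partner, and Il18r1 binds IL-18 with Il18rap. Il1r2 is a decoy that binds IL-1 and does not signal. Inside the cell the chains recruit Myd88, then Irak4 and Irak1, which activate Traf6 and through it NF-kB, while Irak3 (IRAK-M) restrains this step. In HSCs, acute IL-1 is known to drive myeloid output.

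The values are normalized counts made by the authors, and levels between genes are compared per kb of exon. The 13 HSC identity genes, such as Procr and Fgd5, had a mean log2 level of 11.99 to 12.54 in every library. Without another sorted cell type to compare, this does not check the HSC label. In WT 2-month replicate 2 and germ-free 2-month replicates 1 and 3, 13 neutrophil and granulocyte precursor markers had the larger sum. It was 122160 against 103590 for the identity genes, 101440 against 98404 and 156583 against 99816 normalized counts in these libraries. Estimated depth was 15.6 to 56.3 M reads per library, and the 2 deepest libraries, at 51.5 and 56.3 M, were WT at 1 year, whose 5 libraries had 32.6 to 56.3 M. The granulocyte precursor gene Mpo was above 10000 normalized counts in 6 of the 2-month libraries. These were WT replicates 2 and 4, IL1R1 KO replicates 1 and 3 and germ-free replicates 1 and 3. Mpo was also above that limit in WT 2-year replicates 1 and 4 (11719 and 16541) and IL1R1 KO 1-year replicate 2 (12930). Fits without the libraries rich in Mpo left out the 6 libraries of 2 months alone. The IL1R1 KO library 1 of the 1-year group carries an age label of 2 months against its title, and it was kept at 1 year. In bulk libraries fewer cells of a type and less RNA per cell cannot be told apart.

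Of the 10 genes, 5 receptor genes lie on the plus strand of chromosome 1 within 477.6 kb (GRCm38, chr1:40074079-40551705). Their order is Il1r2, Il1r1, Il1rl1, Il18r1 and Il18rap, and Il1rl2, not among the 10, starts between Il1r1 and Il1rl1. Il1rap is on chromosome 16, Traf6 on 2, Irak3 on 10, Irak4 on 15 and Irak1 on X. The promoter windows of Il1r1 and of the 3 genes of this row that changed between genotypes or housing are shown because the results turn on them. They are RefSeq sequences of GRCm38.p6 on the plus strand, 250 bases before to 50 bases after a gene start. Capitals mark matches on either strand to GATAA (GATA factors), GGAAGT (ETS factors) and TGTGGT (RUNX factors).
Il1r1 (chr1:40224830-40225129): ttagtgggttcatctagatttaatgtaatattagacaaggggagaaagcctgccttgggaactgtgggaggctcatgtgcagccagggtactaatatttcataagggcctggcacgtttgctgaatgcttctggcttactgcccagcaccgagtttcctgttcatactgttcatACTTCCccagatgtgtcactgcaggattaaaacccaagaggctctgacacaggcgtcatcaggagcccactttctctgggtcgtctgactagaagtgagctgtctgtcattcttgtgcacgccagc
Il1rl1 (chr1:40429320-40429619): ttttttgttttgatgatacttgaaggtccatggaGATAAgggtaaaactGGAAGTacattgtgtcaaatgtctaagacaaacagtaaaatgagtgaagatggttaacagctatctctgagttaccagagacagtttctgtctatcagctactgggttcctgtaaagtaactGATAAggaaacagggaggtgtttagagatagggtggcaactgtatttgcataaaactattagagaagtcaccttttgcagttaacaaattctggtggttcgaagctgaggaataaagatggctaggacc
Il18r1 (chr1:40465302-40465601): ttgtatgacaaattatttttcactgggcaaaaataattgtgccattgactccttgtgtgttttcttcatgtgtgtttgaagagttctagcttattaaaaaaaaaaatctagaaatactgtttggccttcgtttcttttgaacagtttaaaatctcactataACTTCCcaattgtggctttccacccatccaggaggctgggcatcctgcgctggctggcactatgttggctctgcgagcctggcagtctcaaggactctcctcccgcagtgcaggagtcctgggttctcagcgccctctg
Il18rap (chr1:40515112-40515411): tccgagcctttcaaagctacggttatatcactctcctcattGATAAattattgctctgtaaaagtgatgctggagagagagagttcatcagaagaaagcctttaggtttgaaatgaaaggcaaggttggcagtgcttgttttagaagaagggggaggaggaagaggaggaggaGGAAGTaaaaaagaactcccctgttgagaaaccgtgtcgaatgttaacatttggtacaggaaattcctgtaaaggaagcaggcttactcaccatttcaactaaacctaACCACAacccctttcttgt

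The Il1rl1 window held 2 GATA matches and 1 ETS match, and the Il18rap window held 1 match to each of the 3 motifs. Those printed for Il1r1 and Il18r1 held 1 ETS match each. A second Il1rl1 window (chr1:40439379-40439678), not printed, held 1 GATA and 1 RUNX match. A second Il18r1 window (chr1:40465371-40465670), also not printed, held 1 ETS and 1 RUNX match. Over all 32851 promoter windows of this length in the RefSeq table, 25.4% held the GATA letters, 23.8% the ETS letters and 16.8% the RUNX letters. A match to the named NF-kB motif, present in 4.51% of all windows, was found in 1 of the 16 windows of the 10 genes, a second Il1r1 window (chr1:40266336-40266635). A match describes letters in the window and no binding was measured.

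Per kb of exon, the kinases were the highest of the 10 genes and the ligand-binding receptors the lowest. Over all 30 libraries Irak3 averaged 915 ± 157 normalized counts per kb and Irak1 averaged 501 ± 82.6 (SD). Irak4 averaged 286 ± 44.2 and Traf6 averaged 166 ± 25.6 normalized counts per kb. Among the receptor chains, the accessory chain Il18rap was highest at 133 ± 51.9 normalized counts per kb, followed by Il1rap at 61.8 ± 14.2. Il1r1 averaged 40.0 ± 11.8 and Il1r2 averaged 31.9 ± 25.2 normalized counts per kb. Il18r1 (13.3 ± 10.4) and Il1rl1 (7.94 ± 7.49) were the lowest. Between neighbours in this order, the means of Traf6 and Il18rap, Il1r1 and Il1r2, Il1r2 and Il18r1, and Il18r1 and Il1rl1 lay closer together than the larger of their SDs. The IL-18 receptor pair was uneven in level, with the accessory chain far above the binding chain per kb.

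**Figure D1:**
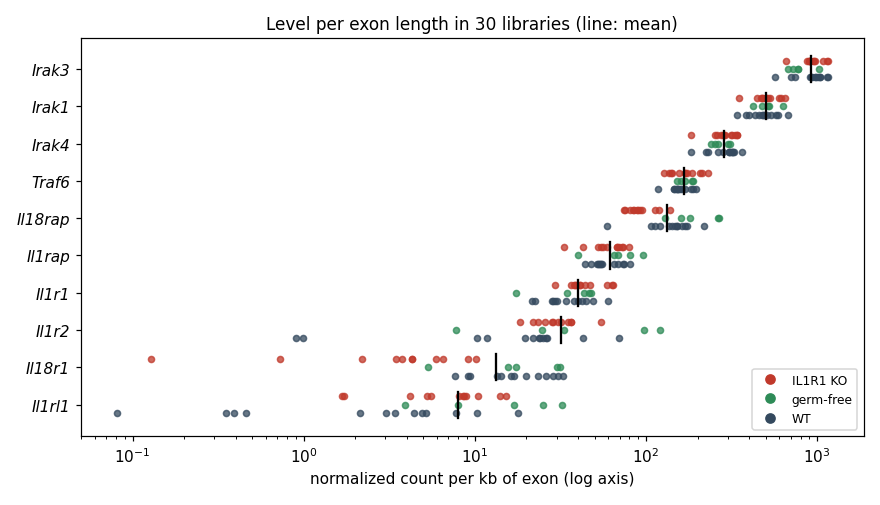
Normalized counts per kb of exon (log axis) of the 10 genes in 30 libraries, ordered by their mean (vertical line), with IL1R1 KO libraries above germ-free and WT libraries in each row. Irak3 is highest at a mean of 915 and Il1rl1 lowest at 7.94; 1 IL1R1 KO library with Il18r1 at 0 is not drawn.

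Il1r1 transcript was not lower in the libraries labelled IL1R1 KO. At 2 months it had 186, 247 and 262 normalized counts in IL1R1 KO libraries, 218, 277 and 111 in germ-free libraries, and 256, 142, 182 and 137 in WT libraries. At 1 year the values were 232, 241, 403 and 262 in IL1R1 KO libraries, 302 and 297 in germ-free libraries, and 243, 267, 282, 187 and 180 in WT libraries. At 2 years they were 374, 300.0, 281, 409 and 246 in IL1R1 KO libraries and 193, 312, 383 and 216 in WT libraries. The groups overlapped at every age, and none of the 12 IL1R1 KO libraries was below the lowest WT library. The log2 difference (IL1R1 KO minus WT) averaged over the 3 ages was 0.31 ± 0.16 (SE), with a 95% interval of -0.01 to 0.63 and a limma adjusted p of 0.371. By age it was 0.40 at 2 months, 0.28 at 1 year and 0.25 at 2 years, with limma adjusted p between 0.714 and 0.804. A gene value sums reads over all exons, so with the deleted part of the gene not given here, Il1r1 does not check the genotype label, and every direction below rests on the label alone.

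The age differences of Il1r1 were positive in all groups, and none passed the test. In WT the log2 difference was 0.39 ± 0.26 at 1 year and 0.61 ± 0.28 at 2 years against 2 months, with limma adjusted p of 0.394 and 0.232. In IL1R1 KO it was 0.28 ± 0.30 at 1 year and 0.47 ± 0.29 at 2 years, with limma adjusted p of 0.754 and 0.381. In germ-free libraries it was 0.66 ± 0.36 at 1 year, with a limma adjusted p of 0.389. The 2 germ-free libraries at 1 year, at 302 and 297, stood above the 3 at 2 months, which spanned 111 to 277. Across the 30 libraries Il1r1 was most like Foxe3 (Pearson r = 0.80), Cxcl16 (0.76), Rora (0.74), Krt8 (0.74) and Tpm1 (0.72) on the log2 scale, a description over libraries that share groups. None of these lies on chromosome 1.

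**Figure D2:**
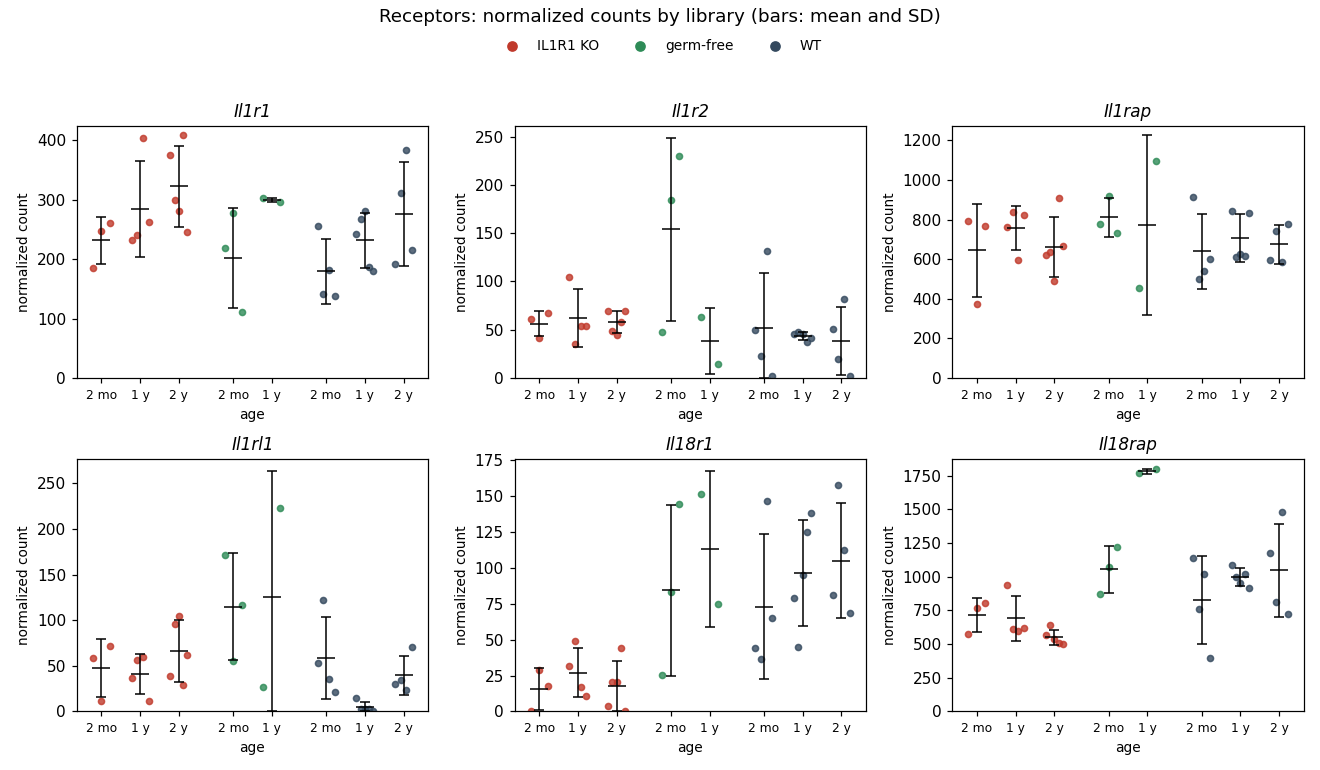
Normalized counts of the 6 receptor chains in each library (points) by age in IL1R1 KO (left), germ-free (middle) and WT (right), with mean and SD (bars, drawn no lower than 0). Il18r1 in IL1R1 KO sits between 0 and 48.8, mostly below WT, and Il1rl1 in WT at 1 year sits at 14.6 or lower.

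Between IL1R1 KO and WT averaged over the ages, 2.25% of all tested genes passed the test. The 2 of the 10 genes that did were Il18r1 and Il18rap, the chains of the IL-18 receptor, and both were lower in the libraries labelled IL1R1 KO. At 2 months Il18r1 had 0, 28.6 and 18.0 normalized counts in IL1R1 KO libraries, against 43.9, 36.8, 147 and 65.0 in WT libraries. At 1 year it had 31.3, 48.8, 16.8 and 10.6 in IL1R1 KO libraries, against 78.8, 45.0, 95.2, 125 and 138 in WT libraries. At 2 years it had 3.50, 20.7, 20.7, 44.0 and 0.616 in IL1R1 KO libraries, against 81.1, 158, 113 and 68.5 in WT libraries. The groups overlapped only at 1 year, through IL1R1 KO library 2, and 10 of the 12 IL1R1 KO libraries lay below the lowest WT library. The log2 difference was -2.69 ± 0.51 over the 3 ages (limma adjusted p = 0.00222), with a 95% interval of -3.73 to -1.65.

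Taken by age, the log2 difference of Il18r1 was -2.95 at 2 months, -1.92 at 1 year and -3.21 ± 0.84 at 2 years. The test was passed at 2 years, with a limma adjusted p of 0.0488, where 1.42% of all genes were called. The values at 2 months and 1 year had limma adjusted p of 0.25 and 0.349. These levels are low, so the log2 difference depends on the pseudocount of 1, and 1 library was listed at 0. With 22 alternatives at 2 years the adjusted p ran between 0.0167 and 0.161, and 5 of them kept the call. Leaving out any 1 WT library of that age, or IL1R1 KO replicate 1, 2, 3 or 5, also ended it, with log2 differences of -3.46 to -2.52.

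Il18rap was lower in IL1R1 KO at 2 years and over the ages. At 2 years it had 566, 639, 541, 507 and 500.3 normalized counts in IL1R1 KO libraries, against 1174, 813, 1478 and 726 in WT libraries. No IL1R1 KO library reached the lowest WT library at that age. The log2 difference was -0.87 ± 0.22 at 2 years (limma adjusted p = 0.0427) and -0.52 ± 0.13 over the 3 ages (limma adjusted p = 0.0358). At 2 months the values were 573, 766 and 805 in IL1R1 KO libraries and 1139, 763, 1019 and 397 in WT libraries, which overlapped (log2 difference -0.12, limma adjusted p = 0.924). At 1 year they were 936, 608, 596 and 621 in IL1R1 KO libraries and 1091, 1002, 952, 1019 and 916 in WT libraries, which overlapped through IL1R1 KO library 1, the one with conflicting age labels. The 1-year log2 difference was -0.55, with a limma adjusted p of 0.291. The 2-year call was lost without WT replicate 1, 2 or 3 or without any 1 IL1R1 KO replicate of that age (log2 differences -0.98 to -0.69), with adjusted p up to 0.147. Of 38 alternatives for the 3 ages together, 21 kept the call. It was lost without WT 2-month replicate 1 or 3, WT 1-year replicate 1, 2 or 4, or WT 2-year replicate 1 or 3. It was likewise lost without IL1R1 KO 2-month replicate 1, 1-year replicate 2, 3 or 4, or 2-year replicate 3, 4 or 5, with log2 differences of -0.52 to -0.45 and adjusted p up to 0.0862 in these fits.

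In germ-free libraries neither chain of the IL-18 receptor passed the test against WT. Il18r1 had 25.5, 83.4 and 144 normalized counts at 2 months and 152 and 74.9 at 1 year in germ-free libraries, which overlapped the WT libraries at both ages. Il18rap had 1771 and 1798 normalized counts in germ-free libraries at 1 year, above every WT library at any age. The log2 difference from WT at 1 year was 0.84 and did not pass the test (limma adjusted p = 0.0738), although it did with only the groups compared in the fit (adjusted p = 0.00933) and without the 2-month libraries rich in Mpo (adjusted p = 0.0208). At 2 months Il18rap had 873, 1073 and 1220 in germ-free libraries, with a log2 difference of 0.44 from WT and a limma adjusted p of 0.627.

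The IL-18 receptor chains also moved together across libraries, with a Pearson r of 0.60 over the 30 libraries, the highest of the 45 pairs of the 10 genes. This r includes the difference between IL1R1 KO and WT that both chains share. The genes most like Il18r1 were Mpp4 (r = 0.80), Lancl1 (0.73), Acadl (0.73), Gm15446 (0.71) and Smarcd1 (0.71). Mpp4, Lancl1 and Acadl start at 59.1, 67.0 and 66.8 Mb of chromosome 1, the chromosome of Il18r1, and Gm15446 and Smarcd1 are on chromosomes 5 and 15. All 5 were lower in IL1R1 KO than in WT over the ages (limma adjusted p between 1.84e-13 and 0.00427). The log2 differences were -1.64 for Mpp4, -0.70 for Lancl1, -0.89 for Acadl, -3.79 for Gm15446 and -1.49 for Smarcd1. These 5 were picked for following Il18r1, itself lower in IL1R1 KO, in the same libraries. Their lower levels are thus a description and no separate support. Markers of T cells and NK cells, which can express Il18r1, had a mean log2 level of 3.98 to 5.98 over 11 genes in IL1R1 KO libraries and 4.18 to 6.33 in WT libraries. Up to 5 of those 11 genes were at 0 in a library. Il18r1 correlated with that list at r = 0.11 over the 30 libraries.

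The erythroid markers differed along the same contrast. Over the ages, 6 of 9 erythroid genes were higher in IL1R1 KO than in WT and none lower. Of all genes, 1.36% were called higher and 0.896% lower. The median log2 difference of the 9 was 1.32, against -0.0029 over all tested genes. Their summed level was 59640 to 106347 normalized counts in IL1R1 KO libraries and 51016 to 66362 in WT libraries, with none of the 9 at 0 in any library. With that list as a covariate, added after the data were seen, neither IL-18 receptor chain was called over the ages. The Il18r1 difference was -2.49 (adjusted p = 0.178), against -2.69 without the covariate. That of Il18rap was -0.46 (adjusted p = 0.47), against -0.52 without it. Under the other 37 alternatives for Il18r1 over the ages the call was kept. The mean log2 level of the erythroid list did not overlap between IL1R1 KO and WT at 1 year (9.64 to 10.39 against 7.40 to 9.19). Nor did it at 2 years (10.33 to 10.69 against 8.77 to 10.05), while the groups overlapped at 2 months. The covariate fit thus cannot separate list and genotype at the older ages, and the part of erythroid cells in the result was not tested.

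Il1rl1, Il18r1 and Il18rap start 204.5, 240.5 and 290.3 kb from the start of Il1r1. Among the 19 tested protein-coding genes that start within 2 Mb of Il1r1, these were the 3 called between IL1R1 KO and WT at 1 or more ages. The same count was 0 of 4 around Il1rap and 0 of 62 around Irak1. It was 1 of 19 around Irak3, 0 of 13 around Irak4 and 0 of 15 around Traf6. By age, 0, 1 and 2 of the 19 around Il1r1 were called at 2 months, 1 year and 2 years. The directions differed: Il1rl1 was higher in IL1R1 KO at 1 year, and Il18r1 and Il18rap were lower at 2 years. The shares of all tested genes called at these ages were 0.407%, 1.30% and 1.42%. Between germ-free and WT at 1 year, Il1rl1 was the 1 called around Il1r1, where 4.96% of all genes were called. In that comparison 0 genes were called around Il1rap, 2 around Irak1, 1 around Irak3, 2 around Irak4 and 1 around Traf6. Il1rl2, the IL-36 receptor that starts 99.5 kb from Il1r1, had a log2 difference of -0.41 ± 0.22 over the ages (limma adjusted p = 0.396), and Il1r2, 151.0 kb on the other side, had 0.97 ± 0.49 (limma adjusted p = 0.364).

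**Figure D3:**
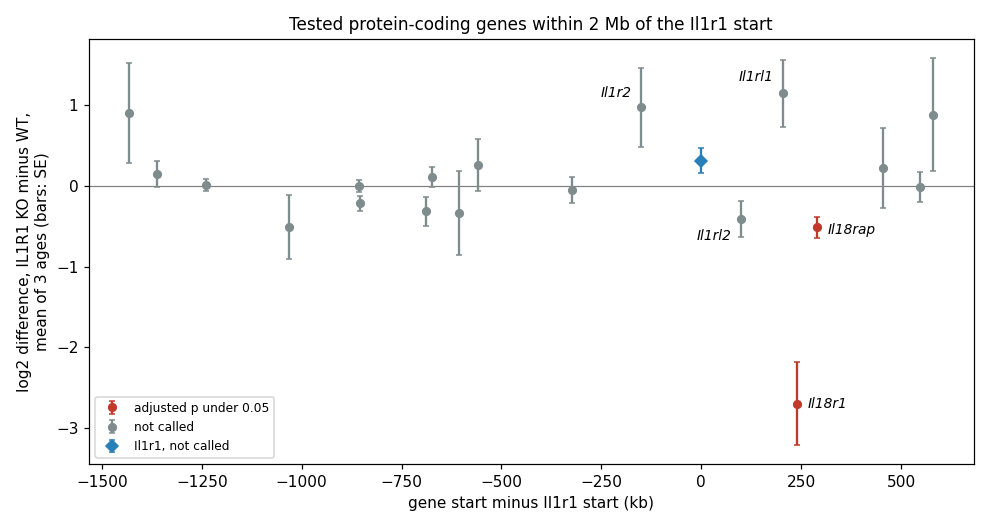
Log2 difference (IL1R1 KO minus WT, mean of the 3 ages, bars: SE) of Il1r1 and the 19 tested protein-coding genes within 2 Mb, against the distance of their start from that of Il1r1 in kb. Il18r1 (-2.69) and Il18rap (-0.52) are called (red), while Il1r1 itself stands at 0.31 and is not.

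Il1rl1, the IL-33 receptor, was lowest in WT libraries at 1 year. There it had 14.6, 2.71, 3.16, 2.41 and 0.556 normalized counts, against 53.3, 122, 35.6 and 20.9 in WT libraries at 2 months. WT libraries at 2 years had 30.5, 34.0, 23.6 and 71.0, so the WT groups at 1 year and at the other ages did not overlap. The log2 difference of WT at 1 year from 2 months was -3.52 ± 0.69 (limma adjusted p = 9.49e-04). These WT libraries had 32.6 to 56.3 M reads and included the 2 deepest of all, and the part of depth in the result was not tested. IL1R1 KO libraries at 1 year had 36.1, 55.8, 59.5 and 11.5 normalized counts, 3 of the 4 above every WT library of that age, and germ-free libraries had 27.1 and 223. Il1rl1 was higher than in WT at 1 year by 3.09 ± 0.69 in IL1R1 KO (limma adjusted p = 0.0162) and by 4.24 ± 0.86 in germ-free libraries (limma adjusted p = 0.00548) on the log2 scale. Both comparisons share the WT libraries at 1 year.

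Il1rl1 was the single one of the 10 genes called between IL1R1 KO and WT at 1 year, where 1.30% of all genes were called, and likewise between germ-free and WT at 1 year, where 4.96% were. At 2 months no gene of the 10 was called for IL1R1 KO or germ-free against WT by limma. There 0.407% and 0.601% of all genes were called by adjusted p. At an unadjusted p under 0.05 there was 1 of the 10 genes in each, a count for which no background was computed. Il1rl1 at 2 months had 58.7, 11.8 and 71.6 normalized counts in IL1R1 KO libraries and 172, 54.9 and 117 in germ-free libraries. At 2 years it had 38.3, 96.2, 105, 28.8 and 61.3 in IL1R1 KO libraries, overlapping WT. The difference of the age changes to 1 year was 3.42 for IL1R1 KO minus WT (limma adjusted p = 0.24) and 3.12 for germ-free minus WT (limma adjusted p = 0.336). Neither IL1R1 KO nor germ-free mice were thus shown to age differently from WT in Il1rl1.

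Il1rl1 followed the erythroid markers from library to library. Its log2 level correlated with their mean at r = 0.84 over the 30 libraries, which share groups. The genes most like it were Slc38a5 (r = 0.87), Add2 (0.87), Ccne1 (0.85), Car1 (0.84) and Rhd (0.84), where Car1, an erythroid carbonic anhydrase, belongs to that list and Rhd encodes a red cell surface antigen. At 1 year, 4 of the 9 erythroid genes were lower and 1 higher in WT than in WT at 2 months. Of all genes, 4.61% were called lower and 6.12% higher there. Against WT at 1 year, 4 of 9 were higher in IL1R1 KO and 5 of 9 in germ-free libraries. Of all genes, 0.666% and 1.83% were called higher in these comparisons. The mean log2 level of the erythroid genes was 7.40 to 9.19 in WT at 1 year and 9.75 to 10.32 in WT at 2 months. It was 9.64 to 10.39 in IL1R1 KO and 10.10 to 11.07 in germ-free libraries at 1 year. The summed level, carried by the most abundant of these genes, overlapped, at 51016 to 66362 normalized counts in WT at 1 year and 54710 to 58375 in WT at 2 months.

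**Figure D4:**
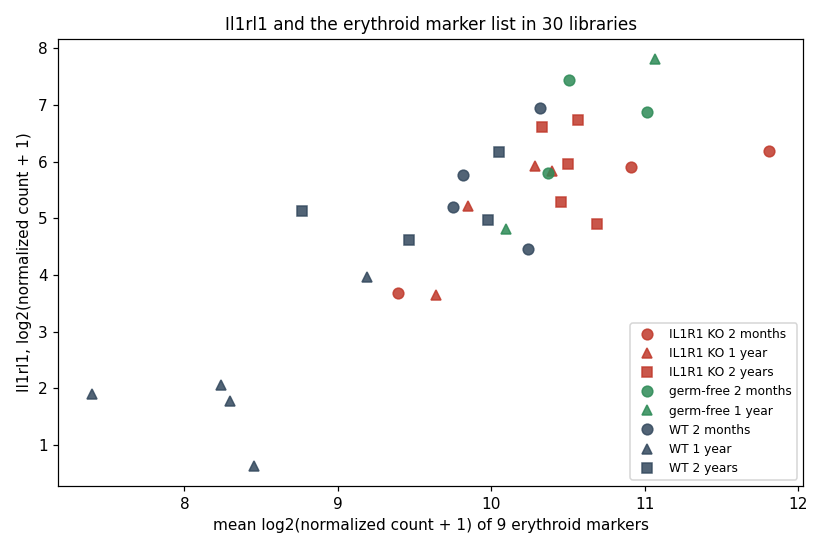
Il1rl1 against the mean of 9 erythroid markers, both as log2(normalized count + 1), in 30 libraries coloured by genotype or housing and shaped by age. Of the 5 WT libraries at 1 year (markers at 7.40 to 9.19), 4 lie lowest on both axes, and r is 0.84 over all libraries.

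With the erythroid list as a covariate, the Il1rl1 difference at 1 year was -1.58 in WT against 2 months (adjusted p = 0.393), 1.13 for IL1R1 KO against WT (adjusted p = 0.867) and 1.67 for germ-free against WT (adjusted p = 0.655). No call was left. In each of these comparisons the erythroid mean of WT at 1 year did not overlap that of the other group. These fits thus cannot separate the list from age, genotype or housing. A covariate of granulocyte precursor markers also ended the WT age call (-2.53, adjusted p = 0.0714), and that list correlated with Il1rl1 at r = 0.63. Its mean log2 level did not overlap either, at 3.32 to 7.48 in WT at 1 year and 8.55 to 10.37 in WT at 2 months. Mast cell markers, another cell type known for Il1rl1, correlated with it at r = 0.34, and 3 to 7 of their 11 genes were at 0 in each IL1R1 KO library. The call for germ-free libraries was lost without replicate 2 of the 1-year pair (2.75, adjusted p = 0.138). The call for IL1R1 KO was lost with a pseudocount of 10 (1.72, adjusted p = 0.101). It was also lost without WT replicate 5 (2.73) and without IL1R1 KO replicate 1 (3.07), 2 (2.86) or 3 (2.83), with adjusted p between 0.0502 and 0.0874.

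Il1r2 and Il1rap, the decoy and the shared accessory chain, were called in no comparison. Il1r2 had 34.9 to 104 normalized counts in the 12 IL1R1 KO libraries, 14.7 to 229 in the 5 germ-free libraries and 1.72 to 132 in the 13 WT libraries. Its spread was wide in most groups, with 47.3, 185 and 229 in germ-free libraries at 2 months, against 49.8, 22.4, 132 and 1.89 in WT libraries. The log2 difference there, germ-free minus WT, was 2.29 with a limma adjusted p of 0.39. Il1rap was steadier, with 376 to 907 normalized counts in IL1R1 KO, 453 to 1095 in germ-free and 502 to 913 in WT libraries. Over the 3 ages its IL1R1 KO minus WT log2 difference was 0.01 (limma adjusted p = 0.986).

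Irak3, the restraining kinase and the highest of the 10 genes per kb, was higher in older WT libraries. It had 3580, 3636, 4243, 3788 and 3734 normalized counts in WT at 1 year and 3396, 3813, 3316 and 4194 in WT at 2 years, against 2570, 2732, 2087 and 3442 in WT at 2 months. The WT groups at 1 year and 2 months did not overlap, while WT 2-year replicates 1 and 3 lay below WT 2-month replicate 4. The log2 difference from 2 months was 0.51 ± 0.12 at 1 year (limma adjusted p = 0.00742) and 0.46 ± 0.13 at 2 years (limma adjusted p = 0.0352). With Il1rl1, it made 2 of 10 genes called in WT at 1 year, where 10.7% of all genes were called, and it was the 1 called at 2 years, where 5.55% were.

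In IL1R1 KO libraries Irak3 had 3481, 3347 and 2428 normalized counts at 2 months, 3279, 4187, 4239 and 3570 at 1 year, and 3502, 3184, 3965, 3333 and 3293 at 2 years. Against 2 months the log2 difference was 0.32 at 1 year and 0.18 at 2 years (limma adjusted p = 0.293 and 0.511). In germ-free libraries it had 2472, 2850 and 2641 at 2 months and 2838 and 3784 at 1 year, a log2 difference of 0.31 (limma adjusted p = 0.409). The difference of the age changes, IL1R1 KO minus WT, was -0.19 at 1 year and -0.28 at 2 years (limma adjusted p = 0.78 and 0.697), so a difference in ageing between the genotypes was not shown. Irak3 level followed the HSC identity genes over the 30 libraries (r = 0.79). In WT those genes had a mean log2 level of 12.43 to 12.54 at 1 year and 12.33 to 12.47 at 2 years, against 12.06 to 12.11 at 2 months, and their part in the result was not tested. The 1-year call was lost with the granulocyte covariate (0.43, adjusted p = 0.116) and with the erythroid one (0.52, adjusted p = 0.13). The mean of neither list overlapped between WT at 1 year and at 2 months, so these fits cannot separate list and age. The 2-year call was lost without WT 2-month replicate 1, 2 or 3 (0.34 to 0.47) or 2-year replicate 2 (0.44) or 4 (0.39), with adjusted p up to 0.143. Irak3 overlaps Tmbim4 on the opposite strand by 541 bases, and reads there cannot be told apart.

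Traf6, the ubiquitin ligase that passes the signal on, was higher at 2 years in IL1R1 KO, the 1 of 10 genes called in that comparison, where 8.02% of all genes were. It had 1465, 1820, 1322, 1670 and 1374 normalized counts in IL1R1 KO at 2 years, against 1009, 1098 and 1118 in IL1R1 KO at 2 months, with no overlap. The log2 difference was 0.50 ± 0.13 (limma adjusted p = 0.0177). At 1 year IL1R1 KO libraries had 1329, 1637, 1072 and 1222, a log2 difference of 0.28 from 2 months (limma adjusted p = 0.376). WT libraries had 1155, 931, 1477 and 1219 at 2 months, 1252, 1333, 1451, 1538 and 1283 at 1 year, and 1192, 1219, 1180 and 1141 at 2 years. The 2-month group overlapped both older ones, while those at 1 and 2 years did not overlap. The difference of the age changes to 2 years was 0.50 (limma adjusted p = 0.327) and the 2-year difference of IL1R1 KO from WT was 0.36 (limma adjusted p = 0.172), so neither passed. The call was lost without IL1R1 KO 2-month replicate 1 (0.46, adjusted p = 0.0968) or 2-year replicate 2 (0.44, adjusted p = 0.052). It was also lost without the 2-month libraries rich in Mpo (0.47, adjusted p = 0.272), with the mast cell covariate (0.48, adjusted p = 0.0557), and with the 1-year library of conflicting age labels placed at 2 months (0.42, adjusted p = 0.0551).

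Irak1 and Irak4, the kinases that join Myd88, were called in no comparison. Irak1 had 1647 to 3042 normalized counts in IL1R1 KO, 1990 to 2961 in germ-free and 1601 to 3161 in WT libraries. Irak4 had 914 to 1708 in IL1R1 KO, 1201 to 1550 in germ-free and 918 to 1816 in WT libraries. Over the 3 ages the IL1R1 KO minus WT log2 difference was 0.07 for Irak1 (limma adjusted p = 0.812) and -0.0020 for Irak4 (limma adjusted p = 0.996). Irak4 overlaps Twf1 on the opposite strand by 3865 bases, so its value is uncertain. None of the 10 genes was called by limma within IL1R1 KO at 1 year or within germ-free libraries at 1 year. By adjusted p, 2.00% and 2.10% of all genes were called there. At an unadjusted p under 0.05 there was 1 of the 10 genes in each, a count for which no background was computed.

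**Figure D5:**
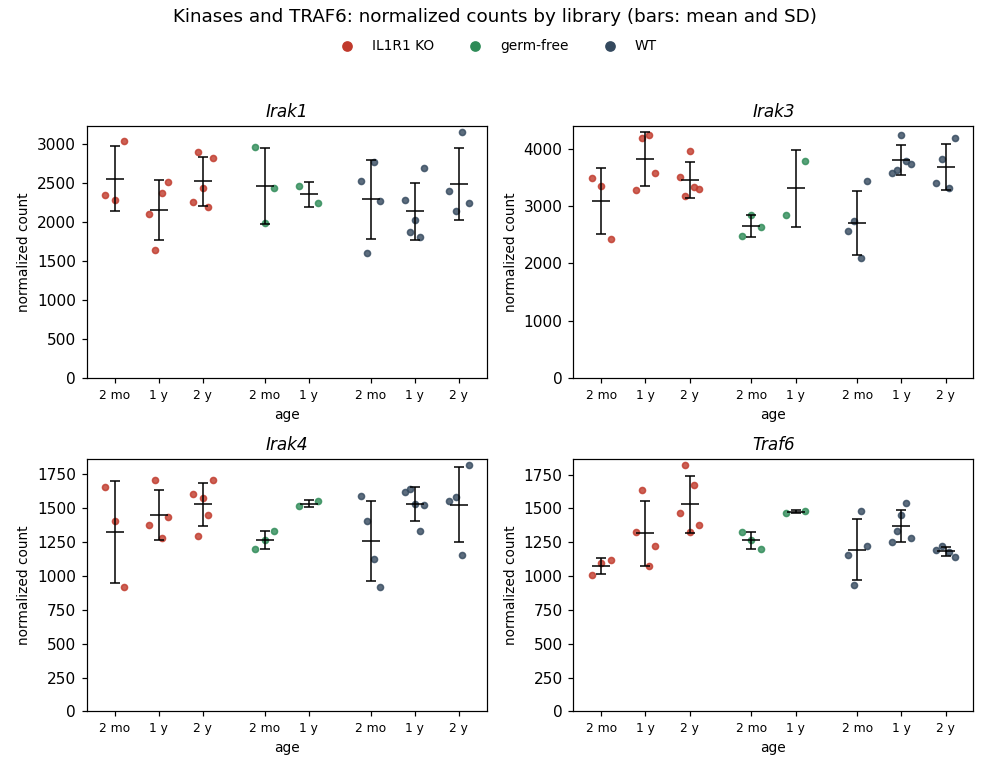
Normalized counts of Irak1, Irak3, Irak4 and Traf6 in each library (points) by age in IL1R1 KO (left), germ-free (middle) and WT (right), with mean and SD (bars). Irak3 in WT sits at 3580 to 4243 at 1 year and 2087 to 3442 at 2 months, and Traf6 in IL1R1 KO at 1322 to 1820 at 2 years and 1009 to 1118 at 2 months.

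The difference of the age changes between IL1R1 KO and WT, or germ-free and WT, was called for none of the 10 genes by limma. By adjusted p, 0.0354% (IL1R1 KO, 1 year), 0.395% (IL1R1 KO, 2 years) and 0% (germ-free, 1 year) of all genes were called. At an unadjusted p under 0.05 there were 1, 2 and 1 of the 10 genes in these comparisons. The share of all genes at an unadjusted p under 0.05 was not computed, so these counts have no background here.

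Among the ligands, of which 6 of the 9 listed genes were in the table, Il18 was detected in every library. It had 429 to 683 normalized counts in IL1R1 KO, 638 to 798 in germ-free and 453 to 690 in WT libraries. Il1b (0 to 165), Il1a (0 to 17.0), Il33 (0 to 30.8) and the receptor antagonist Il1rn (0 to 176) had low counts or 0 in all 30 libraries. Il18bp, the secreted protein that binds and blocks IL-18, was the 1 of 6 ligand genes that changed. It averaged 1423 ± 292 normalized counts in WT at 1 year (n = 5) and 1258 ± 34.2 in WT at 2 years (n = 4), against 786 ± 75.4 in WT at 2 months (SD, n = 4). The log2 difference from 2 months was 0.84 ± 0.14 at 1 year and 0.68 ± 0.15 at 2 years (limma adjusted p = 2.25e-04 and 0.00519). Of all genes, 10.7% and 5.55% were called in these comparisons. In IL1R1 KO at 2 years 8.02% were, and between germ-free and WT at 1 year 4.96% were.

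In IL1R1 KO, Il18bp averaged 1256 ± 158 normalized counts at 2 years (n = 5), against 824 ± 77.6 at 2 months (SD, n = 3), a log2 difference of 0.60 ± 0.16 (limma adjusted p = 0.0148). That call was lost without IL1R1 KO 2-month replicate 1 (0.60, adjusted p = 0.0565) or 3 (0.53, adjusted p = 0.0744). It was also lost without the 2-month libraries rich in Mpo (0.47, adjusted p = 0.429) and with the library of conflicting age labels placed at 2 months (0.50, adjusted p = 0.0551). Germ-free libraries at 1 year averaged 848 ± 255 (n = 2), lower than WT at that age by a log2 difference of -0.76 ± 0.18 (limma adjusted p = 0.0142). That call was lost without germ-free replicate 2 (-0.44, adjusted p = 0.265). With the erythroid covariate, neither this difference (-0.55, adjusted p = 0.497) nor that of WT at 1 year from 2 months (0.68, adjusted p = 0.0646) was called. The erythroid mean did not overlap between the groups of either comparison, so list and group cannot be separated there.

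Of 4 other receptors of the family, 1 was called, in the 5 age comparisons, where 2.00% to 10.7% of all genes were called. Il1rapl2, an accessory-like receptor best known from brain, averaged 1087 ± 155 normalized counts in WT at 1 year (n = 5) and 1066 ± 247 at 2 years (n = 4), against 313 ± 44.8 at 2 months (SD, n = 4). Its log2 difference from 2 months was 1.79 ± 0.22 and 1.74 ± 0.23 in WT at 1 and 2 years (limma adjusted p = 1.55e-06 and 7.26e-06). It was 1.65 ± 0.25 and 1.51 ± 0.24 in IL1R1 KO (limma adjusted p = 2.61e-04 and 9.84e-05) and 1.51 ± 0.30 in germ-free libraries at 1 year (limma adjusted p = 0.00361). It thus passed the test in each of the 5 age comparisons. The IL1R1 KO call at 1 year was lost with the library of conflicting age labels placed at 2 months (1.33, adjusted p = 0.0512). It was also lost with only the groups compared (1.65, adjusted p = 0.0901), as was the germ-free call (1.51, adjusted p = 0.117). Without 1-year replicate 1, which leaves 1 germ-free library at that age, the germ-free difference was 1.34. Sigirr, an inhibitory receptor of the family, had 4489 to 6001 normalized counts in IL1R1 KO at 2 months and 3982 to 5315 in WT at 2 months, and was called in no comparison.

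Of 16 other adaptors, kinases and ubiquitin ligases between the receptors and NF-kB, none was called by limma in any of the 14 comparisons. Over these comparisons 0% to 10.7% of all genes were called. Up to 5 of the 16 were at an unadjusted p under 0.05, for which the share of all genes was not computed. Myd88 is the adaptor that Irak4 and Irak1 join. It averaged 2735 ± 394 normalized counts in IL1R1 KO at 2 years (n = 5) and 2811 ± 412 in WT at 2 years (SD, n = 4).

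Of 19 induced targets and feedback inhibitors, 1 was lower in IL1R1 KO than in WT over the ages, where 0.896% of all genes were called lower. Nfkbia, the NF-kB inhibitor that NF-kB itself induces, averaged 5501 ± 464 normalized counts at 2 months (n = 3), 5873 ± 437 at 1 year (n = 4) and 6949 ± 807 at 2 years (n = 5) in IL1R1 KO. In WT it averaged 8296 ± 3121 (n = 4), 10216 ± 1030 (n = 5) and 10722 ± 2573 (SD, n = 4) at these ages. The log2 difference over the ages was -0.64 ± 0.10 (limma adjusted p = 3.73e-04). At 1 year it was -0.80 ± 0.17 (limma adjusted p = 0.0132), a call lost without IL1R1 KO 1-year replicate 2 (-0.79, adjusted p = 0.0504). With the erythroid covariate the difference over the ages was -0.57 (adjusted p = 0.0986).

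Rel, an NF-kB subunit, was lower in older WT libraries. It averaged 494 ± 115 normalized counts in WT at 1 year (n = 5) and 573 ± 94.9 at 2 years (n = 4), against 1228 ± 300.2 at 2 months (SD, n = 4), with log2 differences of -1.31 ± 0.18 and -1.08 ± 0.19 (limma adjusted p = 1.46e-05 and 5.78e-04). In IL1R1 KO it averaged 644 ± 85.9 at 2 months (n = 3), 786 ± 90.4 at 1 year (n = 4) and 653 ± 73.4 at 2 years (SD, n = 5). At 2 months the log2 difference of IL1R1 KO from WT was -0.91 ± 0.21 (limma adjusted p = 0.0479), a call lost without WT replicate 1, 3 or 4 or any IL1R1 KO replicate (-0.97 to -0.77), with no filter on low values (adjusted p = 0.0604) or with only the groups compared (adjusted p = 0.345). Its age change to 1 year differed between IL1R1 KO and WT by 1.60 ± 0.28 on the log2 scale (limma adjusted p = 0.0181). That call was lost without WT 1-year replicate 3 (1.49, adjusted p = 0.051), IL1R1 KO 2-month replicate 2 (1.49, adjusted p = 0.0904) or IL1R1 KO 1-year replicate 2 (1.58, adjusted p = 0.0584). It was also lost with the library of conflicting age labels placed at 2 months (1.44, adjusted p = 0.0736).

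Other targets also changed with age. In IL1R1 KO at 2 years 5 of 19 were higher than at 2 months and none lower, where 8.02% of all genes were called and 5.12% were called higher, with a median log2 difference of 0.15 against 0.0027 over all tested genes. They were Ptgs2 (3.17 ± 0.53), a prostaglandin synthase, Zc3h12a (1.63 ± 0.40), an RNase that degrades cytokine mRNA, Tnfaip3 (1.53 ± 0.42), a ubiquitin-editing inhibitor of NF-kB, and Bcl3 (1.01 ± 0.25) and Nfkb2 (0.55 ± 0.16). Leaving out the 2-month libraries rich in Mpo ended the calls of Tnfaip3 (1.29, adjusted p = 0.117), Bcl3 (1.10, adjusted p = 0.182) and Nfkb2 (0.12, adjusted p = 0.845). Without IL1R1 KO 2-month replicate 1 the calls of Tnfaip3 (1.25, adjusted p = 0.152), Zc3h12a (1.46, adjusted p = 0.0672) and Nfkb2 (0.61, adjusted p = 0.0599) were lost. That of Zc3h12a was also lost without 2-month replicate 2 (1.28, adjusted p = 0.0836), and that of Nfkb2 without 2-month replicate 3 (0.27, adjusted p = 0.343) or 2-year replicate 1, 2 or 3 (0.50 to 0.55). Bcl3, an IkB-like regulator of transcription, was also higher in WT at 1 year (1.25 ± 0.23) and 2 years (1.62 ± 0.25), with limma adjusted p of 5.83e-04 and 6.48e-05. In WT at 1 year the chemokine gene Cxcl2 was lower, at 8.73 ± 3.94 normalized counts (n = 5) against 63.3 ± 63.2 in WT at 2 months (SD, n = 4), a log2 difference of -2.30 ± 0.70 (limma adjusted p = 0.033). That call was lost without WT 2-month replicate 1 (-2.18, adjusted p = 0.076) or 3 (-1.71, adjusted p = 0.145), or 1-year replicate 1, 2, 3 or 5 (-2.32 to -2.15), and with the myeloid (-2.03, adjusted p = 0.217) or erythroid covariate (-2.37, adjusted p = 0.259). The NF-kB subunit gene Relb was lower in germ-free libraries at 1 year, at 362 ± 59.1 (n = 2) against 765 ± 69.3 in germ-free libraries at 2 months (SD, n = 3), a log2 difference of -1.08 ± 0.25 (limma adjusted p = 0.0153). That call was lost without 1-year replicate 2 (-0.91, adjusted p = 0.142) or without the libraries rich in Mpo (-1.23, adjusted p = 0.0615).

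Ptgs2 was also higher in IL1R1 KO at 1 year, at 468 ± 216 normalized counts (n = 4) against 102 ± 57.9 in IL1R1 KO at 2 months (SD, n = 3), a log2 difference of 2.20 ± 0.56 (limma adjusted p = 0.0345). That call was lost with the library of conflicting age labels placed at 2 months (1.21, adjusted p = 0.572), and without 2-month replicate 1 or 2 or 1-year replicate 1, 2 or 3 (1.95 to 2.33). Whether these changes differ between the genotypes was tested and called for Rel at 1 year alone among the 19.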

How the data were processed

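Sorted HSC RNA was sequenced in 30 libraries, grouped here by title. The values used are the authors' normalized counts, a signal per gene. The submitters' processing notes name GRCm38 (mm10), DESeq2 1.26.0, Salmon 1.2.0.0, cutadapt 2.10 and FastQC 0.11.9. Below 20 reads, 9.64% to 18.5% of a library's values were whole multiples of 1 read within 0.001, so reads were not recovered and no count model was used. Library sums were 27.5 to 30.7 M, and no 2 libraries were identical.

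Values were analysed as log2(normalized count + 1), which understates fold changes of low genes, in limma 3.58.1 (R 4.3.3). Genes at 10 or more in at least 3 libraries were kept. Group means of all 30 libraries were fitted together, with empirical Bayes trend and robust settings, and a call is a two-sided Benjamini-Hochberg adjusted p under 0.05 over all 16958 genes. The fit was tested on simulated data. Separate animals are not stated for the replicates, so p-values measure the spread between these samples only, which may be technical.

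Positions and exon lengths come from GENCODE M21, in which 35422 identifiers had a symbol. Named were the 10 genes, called genes of 4 pathway lists, called neighbours within 2 Mb of Il1r1, and the 5 tested genes most correlated with Il1r1, Il18r1 and Il1rl1; other pathway genes are named as context. Members and lists were chosen with earlier results of these data known. Alternatives covered the pseudocount, filter, scaling, fit, replicate block, library placement and left-out libraries, and marker covariates. Where the mean of a marker list does not overlap between the groups compared, its covariate fit cannot separate the list from the group. Python 3.11.15 with matplotlib 3.10.9, pandas 2.3.3 and numpy 2.4.6 made the tables and plots.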

Additional observations from a re-analysis of the deposited data

Results flagged for a closer look

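Among 50 sets of libraries (each of the 10 genes in the groups of 4 or 5 libraries), 2 held a library far from the others by the gap test of Dixon, which flags about 1 in 20 sets by chance. Il1rl1 in WT at 1 year had 14.6 normalized counts in replicate 1, against 3.16 or less in the other 4 libraries, a gap of 0.815 of the whole range. Il18rap in IL1R1 KO at 1 year had 936 normalized counts in replicate 1, the library with conflicting age labels, against 621 or less in the other 3, a gap of 0.925 of the range.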

How the results depend on the processing

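Alternatives were run for the number of the 10 genes called and for each named difference. WT at 1 year had 2 called without any 1 replicate. With the myeloid or erythroid covariate, the erythroid one added after seeing the data, it had 0. Both list means were lower in WT at 1 year than at 2 months, without overlap, so these fits cannot separate list from age. WT at 2 years (1 called) had 0 with no filter, with only the groups compared, or without trend and robust settings, and 0 to 1 without 1 replicate. IL1R1 KO at 2 years against 2 months (1 called) had 0 with the library of conflicting age labels placed at 2 months, without the libraries rich in Mpo or with the mast cell covariate, and 0 to 1 without 1 replicate. IL1R1 KO against WT at 1 year (1 called) had 0 with a pseudocount of 10 or the erythroid covariate, 2 with only the groups compared, and 0 to 1 without 1 replicate. IL1R1 KO against WT at 2 years (2 called) had 0 with no filter, the erythroid covariate or no trend. It had 1 with a pseudocount of 0.5, only the groups compared, the replicate block, that library moved, or the myeloid or mast cell covariate, and 0 to 1 without 1 replicate. Over the 3 ages (2 called) it had 1 with no filter or no trend, 0 with the erythroid covariate, and 1 to 2 without 1 replicate. Germ-free against WT at 1 year (1 called) had 0 with the erythroid covariate, 2 with only the groups compared or without the libraries rich in Mpo, and 0 to 1 without 1 replicate. The other comparisons had 0 throughout.

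Deviations of same-numbered libraries of different groups correlated at -0.11 to 0.16, with 5 of 88 pairs above 0.1, against 2 of 302 pairs with other numbers. As most pairs were below 0.1, the numbers were not taken as pairs. With the replicate number as a block, Il18r1 at 2 years was -2.94 (adjusted p = 0.0785) and Il18bp, germ-free against WT at 1 year, was -0.64 (adjusted p = 0.0598). Nfkb2 in IL1R1 KO at 2 years was 0.58 (adjusted p = 0.0525), Cxcl2 in WT at 1 year -2.23 (adjusted p = 0.0761) and Rel, IL1R1 KO against WT at 2 months, -0.93 (adjusted p = 0.0632). None of these 5 was called. Among differences that were not called, 3 turned direction: Il1r1, IL1R1 KO against WT at 2 years, was -0.0413 with the mast cell covariate, Il1r1 in WT at 1 year was -0.0333 with the myeloid covariate, and Il18rap, IL1R1 KO against WT at 2 months, ran between -0.44 and 0.0646 without 1 replicate. The cause was not tested. At the low levels of Il18r1 and Il1rl1, few reads limit the precision of each library.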
